A study of Mus musculus with 40 samples.

Results

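The genes described here are 54 genes of the cell cycle, 26 that act in S phase and 28 that act in mitosis, out of 23180 genes counted in both the pubertal and the adult tables of a mouse mammary gland RNA-seq series. They were taken by name from a list of replication and mitosis genes, with no threshold on their values, and all 54 were present in both tables. The lists were made with earlier results of these data known, and 6 of the genes (Iqgap3, Kif18b, Ncapg, Pbk, Knl1 and Pclaf) are named in the study's supplement, where they were picked by size of change between adult stages in these basal libraries, so that these are not independent evidence of a direction in basal cells. The study sequenced 4 populations of wildtype FVB/N female mice: the luminal epithelium facing the lumen, the contractile basal epithelium beneath it, non-adipose stromal cells, and the floating fat fraction of the digested glands. Each population has 2 libraries from puberty (34 to 36 days of age, glands of 4 mice pooled per library) and 2 from each of proestrus, estrus, metestrus and diestrus in adult virgins of 14 to 16 weeks (2 or 3 mice pooled per library), which makes 40 libraries. The first 3 populations were sorted on EpCAM and CD49f after gating out lineage-positive cells, and the replicates of a stage are separate pools of mice, so the p-values measure the spread between pools. Adult pools 1 and 2 of a stage were formed by the study as earlier and later within the stage where cytology allowed it. The 2 pubertal libraries of a population came from different days within the 34 to 36 days, and the study selected them by RNA quality. The spread between pools therefore includes these differences of time. The comparisons ask how far replication and division genes differ between the growing pubertal gland and the adult gland in estrus or in the rest of the cycle.

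As background, a dividing cell first licenses its replication origins with the MCM helicase, then copies its DNA with polymerases, the sliding clamp PCNA and a supply of deoxynucleotides made by ribonucleotide reductase. In mitosis, the chromosomes are compacted by condensin, attached to spindle microtubules at kinetochores under the control of Aurora, Polo-like and Bub kinases, and separated before the cytokinesis machinery divides the cell. Many S phase genes are transcribed under E2F factors, and many mitosis genes carry a cell cycle homology region (CHR) near their start. Pubertal ducts grow by division of cells at their tips, and the adult virgin epithelium goes through smaller rounds of growth with the estrous cycle.

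Promoter windows from RefSeq on GRCm38.p6, reaching from 250 bases before to 50 bases after a gene's start, were found for 45 of the 54 genes (50 windows). Both strands were searched for 4 E2F words (TTCCCGC or TTCGCGC or TTGCCGC or TTGGCGC), for the CHR word TTTGAA and the word CCAAT, and TTGGCGC read on the other strand can share letters with CCAAT. An E2F word was found in 17 of 24 windows of S phase genes and in 5 of 26 windows of mitosis genes, against 9.57% of the 32851 windows in the table. The CHR word stood in 3 of 24 S phase windows and 21 of 26 mitosis windows, against 17.9% of all windows. CCAAT was present in 18 of 24 and 19 of 26, against 37.4%. A match describes letters and is no evidence of binding. The 150 bases before the start are shown for 6 genes of the results below, a licensing factor, a clamp-associated protein and 4 mitosis genes, to show how the words are placed in each class, and capitals mark the words. Words that lie outside these bases or are cut by their end are not marked. In Pclaf an E2F word (GCGGGAA) begins 5 bases before the start and is cut, and another lies at or after the start. Cdc6 lies at chr11:98908001-98908150 (plus strand), Pclaf at chr9:65890173-65890322 (plus), Mki67 at chr7:135716380-135716529 (minus), Top2a at chr11:99024190-99024339 (minus), Ncapg at chr5:45669775-45669924 (plus) and Iqgap3 at chr3:88081901-88082050 (plus), all written 5′ to 3′ in the sense of the gene.
Cdc6: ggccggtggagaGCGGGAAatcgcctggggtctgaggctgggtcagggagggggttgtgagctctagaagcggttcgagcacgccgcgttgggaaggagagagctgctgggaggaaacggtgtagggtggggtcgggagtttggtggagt
Pclaf: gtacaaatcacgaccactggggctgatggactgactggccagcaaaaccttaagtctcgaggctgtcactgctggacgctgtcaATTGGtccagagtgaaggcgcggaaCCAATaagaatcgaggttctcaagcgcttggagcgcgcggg
Mki67: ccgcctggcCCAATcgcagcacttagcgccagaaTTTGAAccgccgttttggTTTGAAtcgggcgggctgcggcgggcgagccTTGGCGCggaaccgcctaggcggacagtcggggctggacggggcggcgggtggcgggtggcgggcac
Top2a: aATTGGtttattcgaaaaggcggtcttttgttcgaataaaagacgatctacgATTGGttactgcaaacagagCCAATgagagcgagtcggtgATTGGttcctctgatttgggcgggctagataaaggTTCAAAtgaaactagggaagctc
Ncapg: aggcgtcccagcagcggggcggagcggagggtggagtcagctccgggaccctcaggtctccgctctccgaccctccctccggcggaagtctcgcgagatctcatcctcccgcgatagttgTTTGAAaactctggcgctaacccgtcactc
Iqgap3: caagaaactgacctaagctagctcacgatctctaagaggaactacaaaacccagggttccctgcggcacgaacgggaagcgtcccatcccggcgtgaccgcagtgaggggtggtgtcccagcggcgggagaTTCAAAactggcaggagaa

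Counts assigned to genes ranged from 8991222 to 22760563 in the 32 adult libraries and from 11774264 to 19033586 in the 8 pubertal libraries. The pubertal and adult libraries were sequenced in separate runs, so that stage and run cannot be told apart in any comparison with puberty. The sorted populations carried their own markers, given as summed CPM (counts scaled to a common library size of 1000000 after TMM scaling). The 8 luminal markers were at 18544 and 37445 CPM in the pubertal luminal libraries, which thus differed from each other, and at 20440 to 26155 CPM in the adult ones. The 8 basal markers were at 11806 to 18686 CPM in basal libraries. The stromal libraries also held 780.5 to 1924 CPM of 6 endothelial markers and 1174 to 1991 CPM of the 8 basal markers. The fat fraction was mixed: summed adipocyte markers were at 2898 to 15595 CPM and fibroblast markers at 3072 to 16707 CPM, while pubertal library 2 and diestrus library 2 carried 891 and 1888 CPM of 8 epidermal markers. In bulk RNA, fewer cells of a type and less RNA per cell cannot be told apart. Exons of 12 of the 54 genes overlap exons of a counted gene on the opposite strand (Mcm7, Cdc45, Gins2, Orc1, Orc6, Pole, Rfc4, Fen1, Kif20a, Ncapg, Nusap1 and Prc1). The strand setting of the counting is not given in the sources used here, so the values of these 12 are less certain.

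In luminal cells both classes were high in puberty, lower in estrus and lowest in proestrus, metestrus and diestrus, which are called the other adult stages here. The summed level of the 26 S phase genes was 771 and 852 CPM in the pubertal libraries and 708 and 404 CPM in estrus libraries 1 and 2. In the 6 libraries of the other adult stages it lay between 295 and 363 CPM, with a median of 322 CPM. The pubertal libraries were thus above every adult library, and estrus library 1 stood close below them. For the 28 mitosis genes the sums were 979.6 and 554 CPM in puberty, 427 and 199.7 CPM in estrus, and 77.7 to 143 CPM (median 112 CPM) in the other adult stages. Here the pubertal libraries differed from each other by more than estrus library 1 differed from the lower of them. Markers of other cell types moved with luminal puberty. The sum of 8 epidermal markers was 223 and 314 CPM in puberty and 70.6 to 131 CPM in the adult, with Flg2 at 0 in every stage group and 5 markers above 1 CPM in puberty against 3 in estrus and in the other stages. The sum of 8 fibroblast markers was 42.9 and 28.6 CPM in puberty and 126 to 637 CPM in the adult, and the part of both in the luminal results was not tested.

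**Figure D1:**
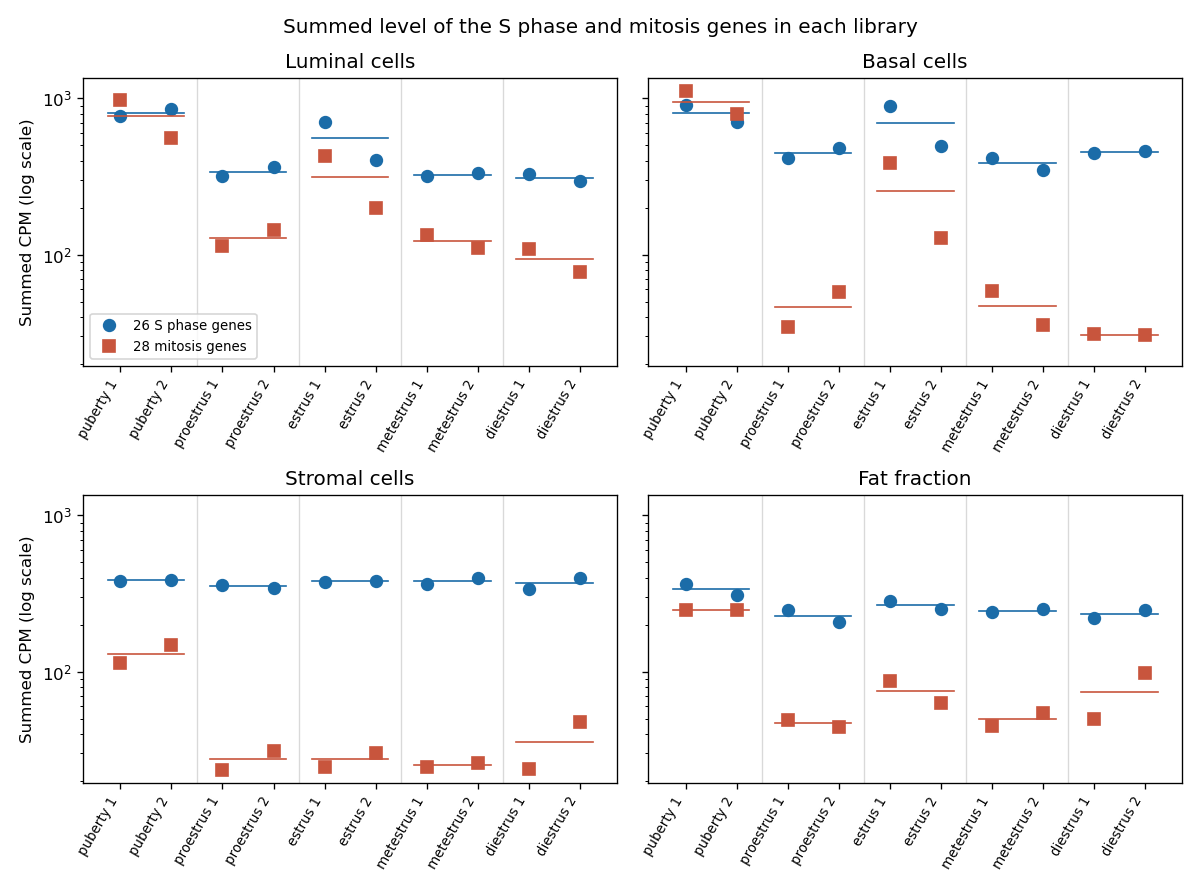
Summed CPM (log axis) of the 26 S phase genes (blue circles) and the 28 mitosis genes (red squares) in each of the 10 libraries of a population, with a line at the mean of the 2 libraries of a stage. In luminal and basal cells estrus library 1 lies above the other adult libraries in both classes, while in stromal cells the S phase sums stay between 339 and 398 CPM and the mitosis sums are at 113 and 147 CPM in puberty against at most 47.3 CPM in the adult.

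Against the other adult stages, edgeR's quasi-likelihood test called 25 of 26 S phase genes and 27 of 28 mitosis genes higher in luminal puberty at an adjusted p under 0.05, where 6.8% of the 12486 tested genes were higher. The median log2 fold change was 1.75 for the S phase genes, 3.19 for the mitosis genes and 0.02 over all genes tested. Both pubertal libraries were above all 6 other adult libraries for each of the 54 genes, a pattern that 11.7% of tested genes shared. The genes not called were Mcm6 and Ncapd2, whose differences were 0.57 ± 0.21 (log2, SE; adjusted p = 0.109) and 0.95 ± 0.27 (adjusted p = 0.0542) in edgeR's test. Leaving out each library in turn left 20 to 25 S phase and 25 to 28 mitosis genes called. For this and later refits without single libraries, the share of all genes called is not given. A change of the members thus cannot be told from one of all genes.

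Among the licensing genes, Mcm2, a subunit of the replicative helicase, was at 36.9 and 40.5 CPM in luminal puberty, 32.8 and 15.4 CPM in estrus, and 9.15, 13.01 and 17.9 CPM (lowest, median and highest) in the other adult stages. Cdc6, which loads the helicase onto origins, was at 5.59 and 5.37 CPM in puberty, 5.25 and 2.22 CPM in estrus and 0.985, 1.45 and 2.00 CPM in the other adult stages. In both genes estrus library 1 was near the pubertal libraries, and estrus library 2 lay nearer to the other adult stages. The differences of puberty from the other adult stages were 1.57 ± 0.28 for Mcm2 (adjusted p = 0.00844) and 1.93 ± 0.35 for Cdc6 (adjusted p = 0.00901) by edgeR. At the fork, Pclaf, which binds the sliding clamp, had the largest luminal difference of the S phase genes, 4.03 ± 0.42 (edgeR adjusted p = 0.000608). Its levels were 27.98 and 42.7 CPM in puberty, 17.7 and 5.88 CPM in estrus and 1.18, 1.89 and 3.94 CPM in the other adult stages. Rrm2, the regulated subunit of ribonucleotide reductase, was at 26.2 and 18.3 CPM in puberty, 14.2 and 5.67 CPM in estrus and 1.40, 2.11 and 3.13 CPM in the other adult stages, a difference of 3.42 ± 0.31 (edgeR adjusted p = 0.000386). Gmnn, the inhibitor of licensing, was at 10.9 and 13.3 CPM in puberty, 6.09 and 4.28 CPM in estrus and 1.65, 1.96 and 3.18 CPM in the other adult stages (2.47 ± 0.25, edgeR adjusted p = 0.000519). For these 3 genes the stages did not overlap: both pubertal libraries were above both estrus libraries, and these above all others. Pcna, the clamp itself, differed less than the other genes of this paragraph, from 49.2, 57.2 and 64.8 CPM in the other adult stages to 79.1 and 117 CPM in puberty (0.77 ± 0.18, edgeR adjusted p = 0.0238).

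Of the mitosis genes, Cenpa, the histone of the centromere, had the smallest adjusted p in luminal puberty against the other adult stages (3.25 ± 0.29, edgeR adjusted p = 0.000332), at 21.6 and 32.6 CPM in puberty against 1.65, 2.87 and 4.30 CPM. Nusap1, which bundles spindle microtubules and overlaps Oip5 on the other strand, had the largest difference (3.68 ± 0.34, edgeR adjusted p = 0.000398), at 28.1 and 21.6 CPM against 0.827, 1.83 and 3.59 CPM. The mitotic kinase Plk1 was at 10.7 and 5.90 CPM in puberty and 0.565, 0.772 and 1.28 CPM in the other adult stages, and Birc5, a subunit of the chromosomal passenger complex, was at 16.8 and 22.8 CPM against 1.28, 2.14 and 2.90 CPM. Their differences were 3.33 ± 0.35 (adjusted p = 0.000608) and 3.27 ± 0.31 (adjusted p = 0.00045) by edgeR. All 4 genes were several times higher in each pubertal library than in any of the 6 other libraries. Top2a, the topoisomerase that untangles sister chromatids, was at 126 and 57.3 CPM in puberty, 54.6 and 20.4 CPM in estrus and 4.96, 8.34 and 16.6 CPM elsewhere (3.41 ± 0.37, edgeR adjusted p = 0.000748). The kinase Pbk was at 18.8 and 20.3 CPM, 12.2 and 4.43 CPM, and 0.772, 1.56 and 2.62 CPM (3.63 ± 0.39, adjusted p = 0.000703 by edgeR). Ncapg, a subunit of condensin I, was at 12.9 and 7.42 CPM in puberty, 5.88 and 2.47 CPM in estrus and at most 1.35 CPM in the other adult stages. Kif18b, a microtubule-depolymerizing kinesin, was at 13.3 and 6.98 CPM, 5.80 and 1.91 CPM, and at most 1.71 CPM. For these genes and for Iqgap3, a scaffold protein of the IQGAP family (33.6 and 16.9 CPM, 18.9 and 8.14 CPM, and at most 5.60 CPM), each estrus library was above all others of the adult. Iqgap3 was the only one of them in which estrus library 1 passed the lower pubertal library.

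Set against estrus alone, luminal puberty gave few calls. The sign was positive for 25 of 26 S phase genes and for all 28 mitosis genes, with median log2 fold changes of 0.67 and 1.27 and a median of 0.04 over all genes. No S phase gene was called by edgeR, 9 had an unadjusted p under 0.05, against 1891 of the 12486 genes, and DESeq2 called 3. Cenpa was the only mitosis gene called (2.24 ± 0.39, adjusted p = 0.0276, at 6.34 and 5.10 CPM in estrus), where 0.825% of tested genes were higher. DESeq2 called 7 mitosis genes higher, and 2.35% of all genes. The call of Cenpa was lost without any one of the 2 proestrus, 2 estrus or 2 metestrus libraries, while 9 S phase and 5 mitosis genes were called without pubertal library 1, and 2 mitosis genes without pubertal library 2. Both pubertal libraries were above both estrus libraries for 20 of 26 S phase and 20 of 28 mitosis genes, against 18.9% of tested genes. Short of the threshold, the smallest adjusted p among S phase genes were those of Gins1, of the GINS complex of the helicase (1.51 ± 0.39, edgeR adjusted p = 0.103), and Gmnn (1.22 ± 0.32, 0.104), while Pclaf differed most (1.58 ± 0.55, 0.211). Anln, an actin-binding protein of the cleavage furrow, was at 194 and 123 CPM in puberty and 71.4 and 32.9 CPM in estrus (1.60 ± 0.35, edgeR adjusted p = 0.06), and Ncapd2 differed least of the mitosis genes (0.20 ± 0.35, 0.792). Mcm6 had the lowest difference of all, -0.06 ± 0.26 (edgeR adjusted p = 0.927), at 92.6 and 112 CPM in puberty and 137 and 75.8 CPM in estrus.

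The luminal pubertal libraries differed from each other along transcript length. Mki67, the marker of cycling cells with a summed exon length of 10.1 kb, was at 99.4 CPM in library 1 and 15.9 CPM in library 2, below both estrus libraries (36.9 and 20.8 CPM). Knl1, a kinetochore scaffold, was at 10.6 and 2.77 CPM, and Cenpf, a large kinetochore protein of 15.4 kb, at 27.7 and 5.99 CPM. The shorter Birc5 (3.40 kb), Pclaf (4.81 kb) and Cenpa (5.86 kb) were higher in library 2. Over the 54 genes the rank correlation of exon length with the log2 ratio of library 2 to library 1 was -0.59, and over 12430 tested genes it was -0.62, given as a description, since the points share the same 2 libraries. In basal cells the same correlation over the members was 0.10, which compares the 2 pubertal libraries only. Over tested genes, exon length correlated with a basal library's deviation at 0.24 and 0.17 in puberty and -0.32 and -0.05 in estrus. The adult basal range was -0.32 to 0.39. For GC content the values were -0.36 and -0.45, 0.26 and 0.55, and -0.15 to 0.59. Median exon length was 3872.5 bp for the S phase and 6063.5 bp for the mitosis genes. The part of length in the luminal results was not tested beyond an alternative with length and GC offsets, which called 25 S phase and 28 mitosis genes against the other adult stages. The share of all genes called with these offsets is not given here. In the basal results the part of length and GC was not tested beyond the same alternative.

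**Figure D2:**
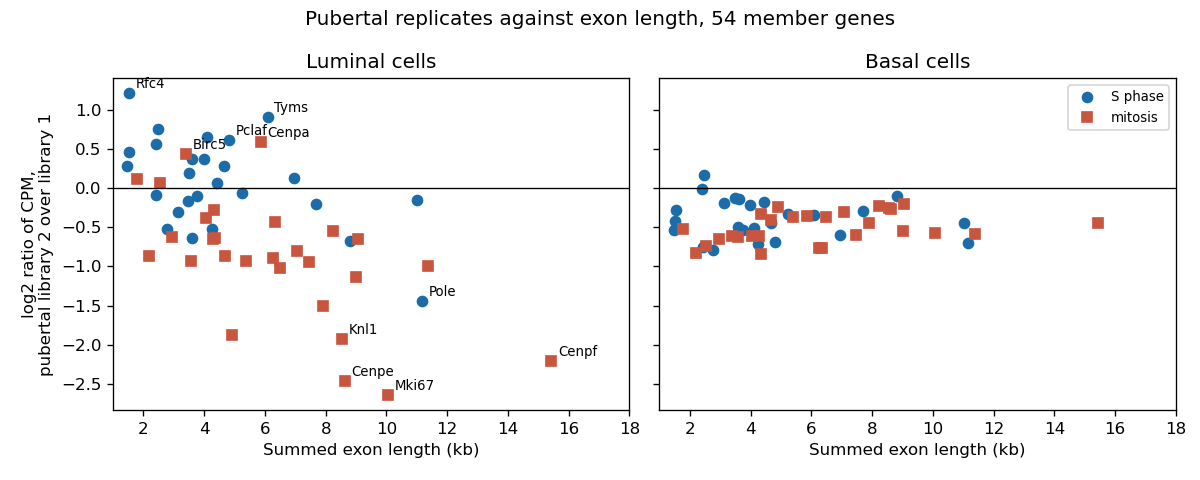
The log2 ratio of CPM in pubertal library 2 over pubertal library 1 against summed exon length in kb, for luminal (left) and basal cells (right); each point is one of the 54 genes, S phase in blue circles and mitosis in red squares. In luminal cells short genes such as Rfc4 lie above 0 and long ones such as Mki67, Cenpe and Cenpf below -2, while the basal points lie mostly below 0 at every length.

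In basal cells the mitosis genes showed the widest range of the 4 populations, and the S phase genes of estrus library 1 were at the level of puberty. The S phase sums were 902 and 704 CPM in puberty, 897 and 495 CPM in estrus and 349.7, 431 and 480.3 CPM (lowest, median and highest) in the other adult stages. The mitosis sums were 1108 and 797 CPM in puberty, 384 and 128 CPM in estrus, and 30.6, 34.98 and 58.2 CPM in the other adult stages. The ratio of the mitosis to the S phase sum was thus 1.23 and 1.13 in puberty, 0.427 and 0.26 in estrus and between 0.0664 and 0.14 elsewhere. Epidermal markers moved with puberty here, with 121 and 207 CPM for 8 genes in the pubertal libraries against 4.29 to 7.75 CPM in the adult ones. Of these markers 5 were above 1 CPM in puberty, and Flg2 was at 0 throughout. The luminal markers were at 883 and 1182 CPM in puberty and 1500 to 2096 CPM in the adult, and the adipocyte markers at 56.1 and 54.7 CPM against 121 to 157 CPM. The part of these markers in the results was not tested.

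Against the other adult stages, 22 S phase genes and all 28 mitosis genes were called higher in basal puberty by edgeR, and 1 S phase gene was called lower, where 24% of 12482 genes were higher and 23.7% lower. The medians were 1.97 and 5.31 on the log2 scale, against -0.01 over all genes. Cenpf rose most, from 0.0531, 0.198 and 0.429 CPM in the other adult stages to 36.6 and 26.9 CPM in puberty (7.34 ± 0.53, edgeR adjusted p = 6.16e-06), and Mki67 went from 0.361, 0.851 and 2.92 CPM to 131 and 88.0 CPM (6.80 ± 0.57, adjusted p = 1.26e-05). Nusap1 had the smallest adjusted p of the mitosis genes (5.86 ± 0.35, edgeR adjusted p = 2.86e-06), followed by Anln, which was at 94.0 and 81.6 CPM against 0.517, 1.15 and 2.87 CPM (6.05 ± 0.40, adjusted p = 4.78e-06). Ncapd2, another subunit of condensin I, rose least, to 44.3 and 26.05 CPM from 11.4, 13.1 and 19.1 CPM (1.38 ± 0.20, edgeR adjusted p = 0.000327). Ncapg, of the same complex, rose by 6.57 ± 0.54 (edgeR adjusted p = 1.06e-05), from 0, 0.114 and 0.773 CPM to 23.3 and 18.96 CPM. Among the S phase genes Pclaf rose most (5.27 ± 0.55, edgeR adjusted p = 4.32e-05), at 35.7 and 22.3 CPM against 0.182, 0.609 and 2.97 CPM. Pole, the catalytic subunit of the leading strand polymerase, and Mcm10, a fork assembly factor, had the smallest adjusted p (3.73 ± 0.33, 1.73e-05, and 3.58 ± 0.32, 1.8e-05, both by edgeR). Mcm2 was at 29.4 and 19.5 CPM in puberty, 26.7 and 9.67 CPM in estrus and 3.09, 5.35 and 9.60 CPM elsewhere, Cdc6 at 4.29 and 3.41 CPM, 4.61 and 1.95 CPM, and 0.584, 0.936 and 1.48 CPM. Rrm2 was at 45.9 and 26.4 CPM, 37.8 and 12.8 CPM, and 2.79, 4.63 and 7.09 CPM. In all 3 genes estrus library 1 lay within or above the pubertal range, and estrus library 2 lay between puberty and the other adult stages. Of the mitosis genes, Top2a was at 189 and 129.6 CPM in puberty, Knl1 at 16.7 and 14.0 CPM, Plk1 at 12.8 and 7.20 CPM and Birc5 at 14.1 and 9.23 CPM. Their highest values in the other adult stages were 5.41, 0.515, 0.789 and 1.37 CPM, and the highest in estrus were 64.5, 5.78, 5.26 and 7.27 CPM, so that no adult library reached a pubertal one. Knl1, Cenpe and Cenpf did not pass the count filter in the adult libraries alone, so that their differences follow in part from the filter, and the other 25 mitosis genes were all called with a median of 5.21. Leaving out each library in turn left 28 mitosis genes and 19 to 23 S phase genes called.

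Mcm7, a helicase subunit like Mcm2, went the other way in basal cells. It was at 72.8 and 64.3 CPM in puberty, 112 and 103 CPM in estrus and 92.8, 104 and 138 CPM in the other adult stages, so that both pubertal libraries were below all 8 adult ones. It fell by 0.65 on the log2 scale against estrus (SE 0.16, edgeR adjusted p = 0.0119) and by 0.65 against the other adult stages (SE 0.14, adjusted p = 0.00299), while the other MCM subunits Mcm2 to Mcm6 had positive differences in both comparisons. Exons of Mcm7 overlap those of Cops6 and Ap4m1 on the opposite strand. Pcna was at 87.9 and 87.7 CPM in basal puberty, 134 and 92.3 CPM in estrus and 91.5, 115 and 156 CPM in the other adult stages, and its difference of -0.42 ± 0.18 from the latter was not called (edgeR adjusted p = 0.0783). Against diestrus alone Pcna was called lower, where 19% of tested genes were. In luminal cells Mcm7 was higher in puberty than in the other adult stages, at 67.6 and 70.6 CPM against 31.3, 38.4 and 57.6 CPM (0.80 ± 0.21, adjusted p = 0.0392).

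**Figure D3:**
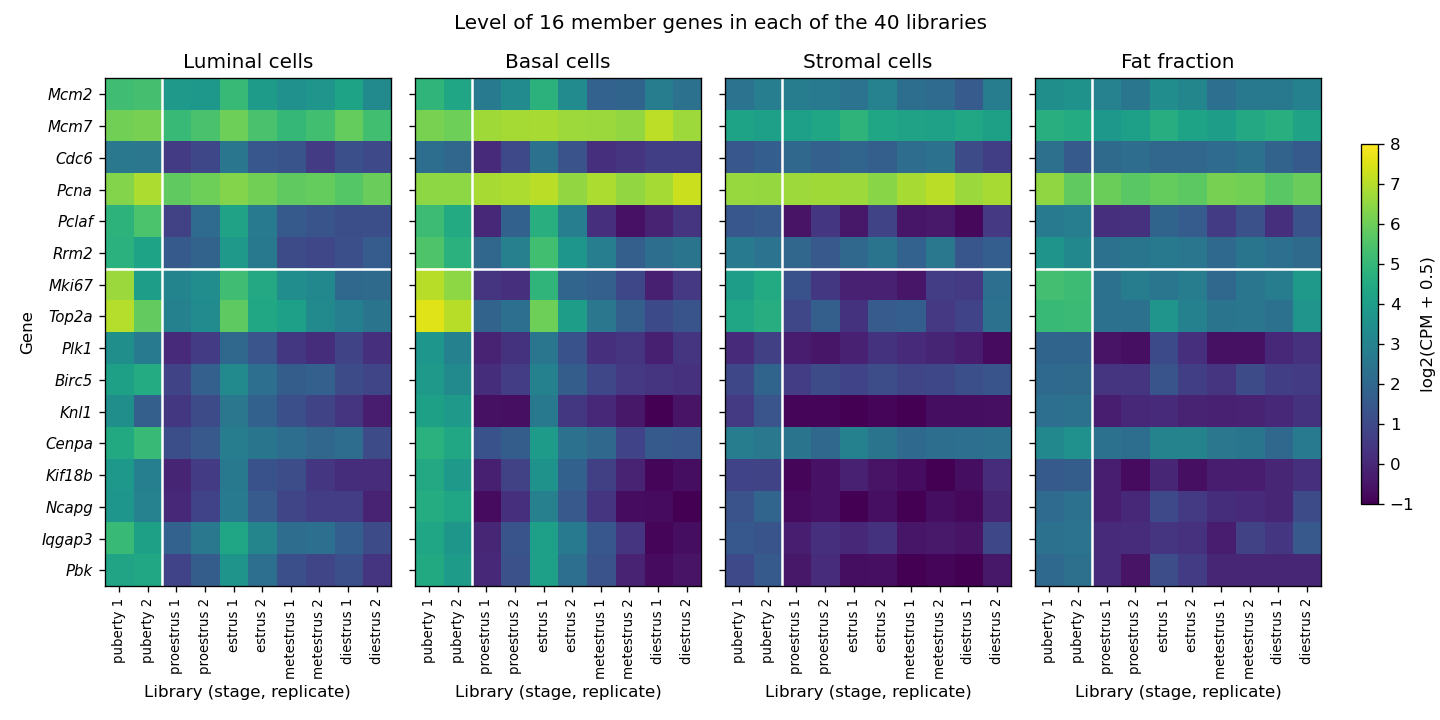
Levels of 16 of the 54 genes as log2(CPM + 0.5) in the 40 libraries, 1 panel per population and 1 column per library, with white lines between S phase and mitosis genes and between puberty and the adult stages. In basal cells Mcm7 and Pcna are darker in puberty than in most adult libraries while the other genes are brighter. Apart from Mcm7 and Pcna, estrus library 1 is brighter there than the remaining adult columns.

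Against estrus, basal puberty separated the classes. For the 28 mitosis genes the median difference was 1.87 on the log2 scale and 21 of them were called higher by edgeR, where 17.5% of tested genes were, while the 26 S phase genes had a median of 0.34 with 2 called higher and 1 (Mcm7) called lower, where 18.6% were lower. The median over all genes was -0.05. Both pubertal libraries exceeded both estrus libraries for 25 mitosis genes and 8 S phase genes, against 34.8% of tested genes. Estrus library 1 reached at least the lower pubertal library in 18 of 26 S phase genes, but in only 3 of 28 mitosis genes (Ncapd2, Iqgap3 and Pbk), where it did so in 57.7% of tested genes. Without Knl1, Cenpe and Cenpf, 18 of 25 mitosis genes were called, with a median of 1.75. The S phase genes called higher were Mcm4 (0.89 ± 0.21, edgeR adjusted p = 0.00921), at 66.2 and 46.9 CPM in puberty against 36.2 and 24.8 CPM in estrus, and Orc1, the largest subunit of the origin recognition complex (1.76 ± 0.46, adjusted p = 0.0145), at 8.70 and 7.97 CPM against 3.70 and 1.24 CPM. Of the mitosis genes the kinetochore motor Cenpe differed most (3.52 ± 0.69, edgeR adjusted p = 0.00417), at 35.5 and 29.6 CPM in puberty and 5.19 and 0.531 CPM in estrus, and Nusap1 had the smallest adjusted p (2.59 ± 0.42, 0.00166), at 25.8 and 16.8 CPM against 4.999 and 2.12 CPM, followed by Cenpf (3.31 ± 0.59, 0.00264). Ncapd2 differed least (0.38 ± 0.26, edgeR adjusted p = 0.266). The groups overlapped for Iqgap3, which was at 19.5 and 12.97 CPM in puberty, 16.5 and 5.84 CPM in estrus and at most 2.23 CPM elsewhere (0.54 ± 0.56, edgeR adjusted p = 0.464). Kif18b was at 20.98 and 13.7 CPM against 11.4 and 2.95 CPM (1.28 ± 0.56, adjusted p = 0.0943), and Pbk at 21.9 and 15.2 CPM against 16.4 and 4.42 CPM (0.84 ± 0.61, adjusted p = 0.301). The counts depended on single libraries: 7 mitosis genes were called without pubertal library 1 and 12 without estrus library 2. The S phase calls numbered 17 without estrus library 1 and 1 without either pubertal library or without estrus library 2.

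**Figure D4:**
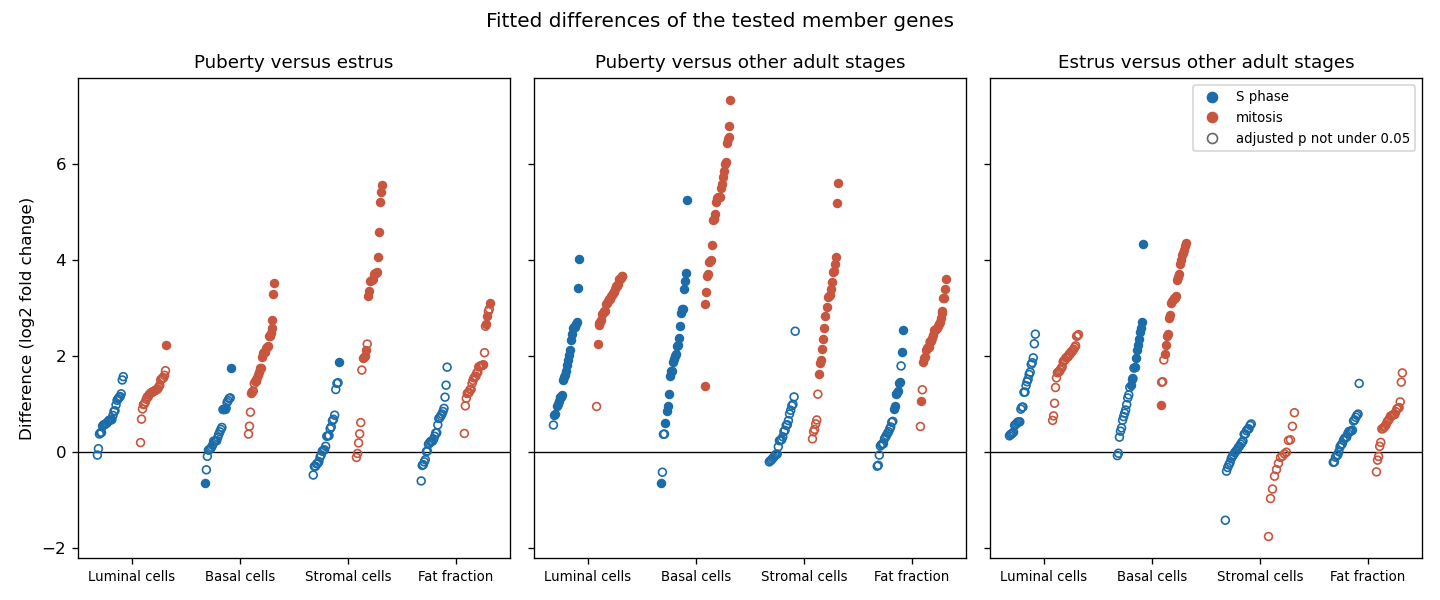
Fitted log2 fold changes of the tested genes in 3 comparisons (panels) and 4 populations, sorted within each class, S phase in blue and mitosis in red; filled points have an adjusted p under 0.05 in edgeR's test. The median mitosis gene lies above the median S phase gene in each comparison with puberty, and in estrus against the other adult stages filled points occur in basal cells only.

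In stromal cells puberty differed from the adult in mitosis genes, with little difference in S phase genes. The S phase sum was 381 and 387 CPM in puberty, 377 and 381 CPM in estrus and 339, 361 and 398 CPM in the other adult stages, which overlap. The mitosis sum was 113 and 147 CPM in puberty, 24.5 and 30.1 CPM in estrus and 23.6, 25.2 and 47.3 CPM in the other adult stages, and the pubertal libraries lay above all 8 adult ones. Against estrus, 18 mitosis genes were called higher by edgeR and 1 S phase gene, where 17.3% of 13267 genes were higher. Against the other adult stages the counts were 19 mitosis genes and 0 S phase genes (6 with an unadjusted p under 0.05, against 3700 of all genes, and 1 called by DESeq2, which called 9.31% of all genes higher), where 5.22% were higher. The medians of the mitosis genes tested were 3.36 and 2.84 on the log2 scale, and those of the S phase genes 0.23 and 0.29, against -0.05 and -0.02 over all genes. Tests covered 24 S phase and 25 mitosis genes, since Gmnn, Gins1, Aurkb, Plk1 and Knl1 did not pass the filter on low counts. Of the mitosis genes tested, 11 passed it only with the pubertal libraries, where they are high, so that their differences follow in part from the filter (Bub1, Ndc80, Nuf2, Cenpe, Cenpf, Kif18b, Ncapg, Iqgap3, Pbk, Ttk and Ect2), and the counts and medians of the class rest in part on them. Of these 11, 9 were called against estrus and 11 against the other adult stages. Among the 14 that also passed in the adult libraries alone, 9 were called against estrus and 8 against the other adult stages, with medians of 1.99 and 1.89. Of the S phase genes, Pclaf passed only with puberty. Of the genes without a test, Knl1 was at 0.947 and 2.09 CPM in puberty, at 0 and 0.0495 CPM in estrus and at most 0.153 CPM in the other adult stages.

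Prc1, which crosslinks the central spindle and overlaps Rccd1, and Anln had the smallest adjusted p in stromal cells in both comparisons. Prc1 was at 7.81 and 10.9 CPM in puberty, 0.632 and 1.19 CPM in estrus and 0.703, 1.15 and 1.74 CPM in the other adult stages (3.26 ± 0.43 against estrus and 3.02 ± 0.29 against the others, edgeR adjusted p = 0.0035 and 0.0029). Anln was at 6.71 and 7.65 CPM, 0.379 and 0.892 CPM, and 0.643, 0.964 and 1.62 CPM (3.36 ± 0.47 and 2.84 ± 0.31, adjusted p = 0.0035 and 0.00396). For both genes no adult library came near the pubertal ones. Mki67 had the largest difference from estrus (5.57 ± 0.84, edgeR adjusted p = 0.00357), at 15.5 and 22.3 CPM against 0.379 and 0.396 CPM. Bub1, a kinase of the spindle checkpoint, had the largest difference from the other adult stages (5.62 ± 0.91, edgeR adjusted p = 0.0143), at 1.66 and 2.87 CPM against 0 to 0.251 CPM. Bub1 passed the count filter only with the pubertal libraries, so that its difference follows in part from the filter. Cenpa did not follow: it was at 6.31 and 5.65 CPM in puberty, 7.33 and 5.003 CPM in estrus and 3.63, 4.30 and 5.02 CPM in the other adult stages (-0.03 ± 0.30 against estrus, edgeR adjusted p = 0.957). Pola1, the catalytic subunit of the primase-polymerase, was the S phase gene called against estrus (1.87 ± 0.41, adjusted p = 0.0108), at 18.1 and 14.3 CPM in puberty, 2.53 and 5.94 CPM in estrus and 8.55, 11.4 and 15.1 CPM elsewhere. In that gene estrus was the group that stood apart, below the other adult stages. Mcm10 had the next smallest adjusted p among S phase genes (1.44 ± 0.54, edgeR adjusted p = 0.0812), and Mcm7 the lowest difference from estrus (-0.48 ± 0.23, 0.161). Aurka, a spindle kinase, had the lowest of the mitosis genes (-0.11 ± 0.63, edgeR adjusted p = 0.914).

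Top2a showed the same order as Mki67 in stromal cells, at 19.7 and 23.9 CPM in puberty, 0.758 and 2.48 CPM in estrus and 0.907, 2.06 and 4.80 CPM in the other adult stages. Ncapg was at 1.97 and 3.30 CPM in puberty against 0 and 0.149 CPM in estrus (4.59 ± 1.002, edgeR adjusted p = 0.0109), and Pbk at 1.4997 and 2.43 CPM against 0.126 and 0.149 CPM (3.72 ± 0.96, 0.0209). Iqgap3, at 2.29 and 2.00 CPM, and Kif18b, at 1.26 and 1.30 CPM, were called against the other adult stages, where they reached at most 1.43 and 0.613 CPM. All of these genes were at or below a few CPM outside puberty, which limits the precision of their folds. Ncapg, Pbk, Iqgap3 and Kif18b passed the count filter only with the pubertal libraries, so that their differences follow in part from the filter. Against estrus, Iqgap3 and Kif18b were not called. Birc5 was at 1.42 and 3.22 CPM in puberty and 1.05, 1.52 and 2.04 CPM in the other adult stages, which overlap, and Plk1, below the filter, was at 0.553 and 1.13 CPM. Among S phase genes Mcm2 was at 4.89 and 6.78 CPM in puberty, 4.93 and 7.43 CPM in estrus and 2.53, 5.23 and 6.59 CPM elsewhere, and Cdc6 at 2.21 and 2.69 CPM, 3.29 and 2.77 CPM, and 1.07, 3.23 and 4.73 CPM. Rrm2 was at 6.08 and 4.87 CPM in puberty and 3.54 and 4.95 CPM in estrus, and Pcna at 97.6 and 94.6 CPM against 102 and 84.3 CPM. For these 4 genes the stages overlapped. The S phase genes with the smallest adjusted p against the other adult stages were Pclaf (2.52 ± 0.72, edgeR adjusted p = 0.0585), at 2.21 and 2.52 CPM against at most 0.92 CPM, and Uhrf1, which reads hemimethylated DNA at the fork (0.87 ± 0.30, 0.0995). Of these, Pclaf passed the filter only with puberty. Pcna had the lowest value of the S phase genes there (-0.20 ± 0.15, edgeR adjusted p = 0.407), and the checkpoint kinase Bub1b the lowest of the mitosis genes (0.28 ± 0.71, 0.831).

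Fibroblast markers moved with stromal puberty: the sum of 8 markers was 72938 and 99259 CPM in puberty and 16246 to 43872 CPM in the adult, with all 8 above 1 CPM in each group. Within a library, the level of each gene was related to GC content, with rank correlations of the deviation from the mean between -0.56 and -0.54 in stromal puberty and between -0.20 and 0.63 in the adult stromal libraries. With GC and length offsets the mitosis genes called against estrus numbered 10 in place of 18. For this refit and those below, the share of all genes called is not given. A drop of the members cannot be told from one of all genes. The part of cell composition was not tested. The stromal counts also fell with the pubertal libraries: against the other adult stages, 5 mitosis genes were called without pubertal library 1 and 1 without pubertal library 2. Against estrus, 8 and 6 were called without pubertal library 1 or 2, and 9 without estrus library 1. Pola1 was not called without pubertal library 1 or estrus library 1, and 3 S phase genes were called without estrus library 2.

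In the fat fraction, mitosis genes were higher in puberty than in the other adult stages, and S phase genes rose in part. The mitosis sum was 247 and 246 CPM in puberty, 87.2 and 63.1 CPM in estrus and 44.3, 49.2 and 97.4 CPM in the other adult stages, the highest of which was diestrus library 2. The S phase sum was 366 and 311 CPM in puberty, 284 and 253 CPM in estrus and 208, 243 and 251 CPM in the other adult stages. Both sums were above all adult libraries in puberty. Against the other adult stages, edgeR called 25 of 28 mitosis genes and 8 of 26 S phase genes higher, where 4.16% of 14219 genes were higher, with medians of 2.49 and 0.51 and 0.07 over all genes. Against estrus 3 mitosis genes were called higher, where 1.05% of genes were, and 0 S phase genes (6 with an unadjusted p under 0.05, against 4334 of all genes, and 1 called by DESeq2). DESeq2 called 19 mitosis genes higher against estrus, and 9.99% of all genes. Plk1, Knl1, Kif18b, Mcm10 and Orc1 passed the count filter only with the pubertal libraries, where they are higher, so that their differences follow in part from the filter. Without them, 22 of 25 mitosis genes and 7 of 24 S phase genes were called against the other adult stages, with medians of 2.38 and 0.46, and 2 mitosis genes against estrus. Both pubertal libraries were above both estrus libraries for all 28 mitosis genes and 15 S phase genes, against 29.6% of tested genes.

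The mitosis genes called against estrus in the fat fraction were Knl1 (3.11 ± 0.40, edgeR adjusted p = 0.0407), Mki67 (2.68 ± 0.39, adjusted p = 0.0407) and Cenpe (2.84 ± 0.44, adjusted p = 0.0433). Mki67 was at 39.7 and 35.3 CPM in puberty, 5.32 and 6.41 CPM in estrus and 3.60, 5.81 and 14.1 CPM in the other adult stages, and Knl1 was at 4.34 and 4.62 CPM, 0.584 and 0.437 CPM, and 0.338, 0.453 and 0.761 CPM. In both genes the pubertal libraries were close together and did not overlap the adult ones. Plk1 had the largest difference from the other adult stages (3.60 ± 0.37, edgeR adjusted p = 0.0133), at 3.20 and 3.25 CPM against 0.151, 0.182 and 0.707 CPM. The values of Plk1, Knl1, Kif18b and Orc1 follow in part from the filter, which these genes passed only with puberty. Kif11, the motor that slides spindle microtubules apart, shared the smallest adjusted p with Knl1 (2.81 ± 0.24 and 3.21 ± 0.28, both 0.00987 by edgeR), and Ncapd2 had the lowest difference (0.54 ± 0.16, 0.0698). Top2a was at 34.2 and 34.4 CPM in puberty, 12.5 and 7.28 CPM in estrus and 4.60, 4.81 and 12.4 CPM in the other adult stages. Pbk was at 3.74 and 4.46 CPM, 1.69 and 1.02 CPM, and at most 0.541 CPM, and Ncapg at 3.90 and 4.62 CPM, 1.46 and 0.946 CPM, and at most 1.63 CPM. Iqgap3, Kif18b and Birc5 reached 4.87, 2.64 and 3.80 CPM in puberty and at most 2.34, 0.652 and 2.04 CPM in the adult. In each of these 6 mitosis genes both pubertal libraries were above all 8 adult libraries, a pattern of 5.61% of tested genes. Of the S phase genes, Uhrf1 had the smallest adjusted p (1.47 ± 0.19, 0.0212), at 10.7 and 10.2 CPM against 2.85, 3.80 and 4.87 CPM, and Pclaf the largest difference (2.56 ± 0.38, adjusted p = 0.0226). Gmnn had the lowest value, -0.29 ± 0.33 (edgeR adjusted p = 0.60). Mcm2 was at 10.8 and 11.6 CPM in puberty, 10.2 and 8.23 CPM in estrus and 4.38, 5.74 and 7.51 CPM elsewhere, and Rrm2 at 12.0 and 8.67 CPM, 5.67 and 5.31 CPM, and 3.75, 4.50 and 5.12 CPM. Cdc6 was at 4.50 and 2.43 CPM, 3.39 and 3.42 CPM, and 2.39, 3.88 and 4.68 CPM, and Pcna at 90.2 and 55.5 CPM, 57.6 and 52.3 CPM, and 50.8, 61.4 and 70.0 CPM. The stages overlapped for Cdc6 and Pcna, and not for Mcm2 and Rrm2. Against estrus, Rrm2 (0.91 ± 0.26, edgeR adjusted p = 0.0846) and Fen1, a flap endonuclease (0.70 ± 0.21, 0.0923), had the smallest adjusted p of the S phase genes. Orc1 had the highest difference there (1.77 ± 0.62, edgeR adjusted p = 0.117), Gins2 the lowest (-0.60 ± 0.28, 0.193) and Cenpa the lowest of the mitosis genes (0.39 ± 0.28, 0.348).

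Epithelial markers moved with some fat libraries: the luminal sum was 1135 and 586 CPM in puberty and 120.3 to 1154 CPM in the adult, and the basal sum was 527 and 1851 CPM against 125 to 3155 CPM. Fibroblast markers were at 8413 and 16707 CPM in puberty and 3072 to 6615 CPM in the adult, with all 8 above 1 CPM in each group. Adipocyte markers were at 7657 and 2898 CPM in puberty, at 3873 CPM in diestrus library 2 and at 10071 to 15595 CPM in the other 7 adult libraries. The part of these markers in the results was not tested. No mitosis gene was called against the other adult stages without pubertal library 1 or metestrus library 1, and 1, 3 and 14 were called without proestrus library 2, proestrus library 1 and pubertal library 2. The 8 S phase calls went to 0 without pubertal library 1, either proestrus library or metestrus library 1, to 3 without pubertal library 2 or metestrus library 2 and to 5 without diestrus library 1. Against estrus the count of mitosis genes was 0 without pubertal library 1 or any proestrus, estrus or metestrus library, 5 without pubertal library 2, and 14 and 15 without diestrus libraries 1 and 2.

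Within the adult, estrus was set against the average of proestrus, metestrus and diestrus in the 8 adult libraries of each population. These comparisons share the estrus libraries with the comparisons of puberty with estrus, and the values are given side by side only. In basal cells 11 of 26 S phase genes and 22 of 25 tested mitosis genes were called higher in estrus by edgeR, where 1.2% of 12122 genes were higher and 1 gene was lower. Knl1, Cenpe and Cenpf were not tested there, since only estrus library 1 exceeded the count filter. Their levels in estrus library 1 were 5.78, 5.19 and 5.65 CPM, against 0.884, 0.531 and 0.825 CPM in estrus library 2. The median log2 fold changes were 1.37 and 3.21, against -0.01 over all genes, beside 0.34 and 1.87 for puberty against estrus. Ncapg had the largest difference (4.37 ± 0.66, edgeR adjusted p = 0.0141), at 7.08 and 2.36 CPM in estrus. Ncapg and Plk1 stayed under 1 CPM in the other stages. They passed the count filter through the estrus libraries, where they are high, so that their differences follow in part from the filter. Other called genes of that kind were not counted apart. The count of 22 mitosis genes and their median of 3.21 rest in part on such genes. Ncapg, Pclaf, Iqgap3, Kif18b and Pbk were also picked by the study's supplement from these basal libraries. Top2a and Kif20a, a kinesin of cytokinesis, had the smallest adjusted p (3.72 ± 0.40 and 2.81 ± 0.31, both 0.00945). Top2a was at 64.5 and 15.9 CPM in estrus and 1.55, 2.99 and 5.41 CPM in the other stages. Pclaf was the S phase gene with the largest difference and the smallest adjusted p (4.35 ± 0.58, 0.0104, by edgeR), at 24.7 and 6.66 CPM in estrus, followed by Pole (2.59 ± 0.35, 0.0109). The lowest differences were those of Pcna (-0.07 ± 0.18, edgeR adjusted p = 0.902) and, of the mitosis genes, Ncapd2, which was still called (0.98 ± 0.17, 0.0255).

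The estrus replicates differed in these genes. In luminal and in basal cells, library 1 was above library 2 for all 54 genes, against 49.3% of luminal and 52.3% of basal genes tested, with a median ratio of 1.87 for S phase and 2.18 for mitosis genes in luminal cells and of 2.46 and 3.31 in basal cells. Library 2 alone was above all 6 libraries of the other stages for 16 S phase genes in each of the 2 populations, and for 26 luminal and 25 basal mitosis genes, against 10.8% of luminal and 13.8% of basal genes tested. In basal cells no gene of either class was called without estrus library 1, diestrus library 1 or diestrus library 2. Without metestrus library 2 the counts were 3 and 12, and without estrus library 2 18 S phase genes were called. In the fat fraction library 1 was above library 2 for 19 S phase and 26 mitosis genes, against 49.7% of tested genes, with median ratios of 1.12 and 1.48. In stromal cells it was above for 12 S phase and 8 mitosis genes, against 41.6% of tested genes, with median ratios of 0.95 and 0.659.

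In luminal cells no gene of the 12306 tested was called between estrus and the other stages by edgeR, so that 0 S phase and 0 mitosis genes were called. Their unadjusted p was under 0.05 for 22 and 28 genes, against 1076 of all genes, and DESeq2 called 12 and 24 higher, and 1.18% of all genes. The medians were 0.94 and 1.95 on the log2 scale, against 0.00 over all genes. Both estrus libraries were above the 6 others for 16 S phase and 26 mitosis genes, where 5.56% of tested genes were. Ect2, the exchange factor that triggers the cleavage furrow, was at 14.996 and 7.32 CPM in estrus and 2.44, 3.87 and 4.79 CPM in the other stages (1.66 ± 0.26, edgeR adjusted p = 0.0868). Mki67 had the smallest adjusted p (2.09 ± 0.21, adjusted p = 0.0715), followed by Cenpf (1.68 ± 0.25, 0.0868). The highest and lowest mitosis differences were those of Ndc80, a kinetochore subunit (2.45 ± 0.44, edgeR adjusted p = 0.0949), and Anln (0.66 ± 0.25, 0.471). Of the S phase genes these were Pclaf (2.46 ± 0.44, edgeR adjusted p = 0.0949) and Orc6 (0.34 ± 0.16, 0.60), and the smallest adjusted p were those of Rrm2 (2.26 ± 0.32, 0.0868) and thymidylate synthase Tyms (1.52 ± 0.25, 0.0949). Leaving out estrus library 2 or diestrus library 2 gave some calls, in refits whose share of all genes called is not given here. In the fat fraction and in stromal cells 0 genes of either class were called by edgeR. The numbers at an unadjusted p under 0.05 were 7 S phase and 5 mitosis genes in the fat fraction, against 2296 of 13726 genes, and 3 and 0 in stromal cells, against 2715 of 13068 genes. DESeq2 called no member in the fat fraction, where it called 1.22% of genes higher, and in stromal cells it called Pola1 lower, with 7.66% of genes. In stromal cells 14 of the 28 mitosis genes passed the count filter in the adult libraries, with a median of -0.10, and Mki67 had the lowest value (-1.76 ± 0.84, edgeR adjusted p = 0.281) and Aurka the highest (0.82 ± 0.55, 0.441), while Cenpa had the smallest adjusted p (0.54 ± 0.26, 0.274). Pola1 had the smallest adjusted p of the stromal S phase genes and the lowest value (-1.42 ± 0.36, edgeR adjusted p = 0.0874), Rrm1 the next smallest adjusted p (0.38 ± 0.16, 0.229) and Cdc45 the highest value (0.59 ± 0.36, 0.406). In the fat fraction Pbk had the smallest adjusted p and the highest difference of the mitosis genes (1.65 ± 0.40, edgeR adjusted p = 0.218) and Ncapd2 the lowest (-0.41 ± 0.18, 0.309), with Kif11 next to Pbk (1.05 ± 0.28, 0.221). Of its S phase genes Uhrf1 and Gins2 had the smallest adjusted p (0.77 ± 0.21 and 0.80 ± 0.22, 0.221 and 0.222 by edgeR), Pclaf the highest difference (1.43 ± 0.42, 0.233) and Cdt1 the lowest (-0.21 ± 0.16, 0.519).

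Whether the difference of puberty from estrus was itself unlike between populations was tested in a joint fit of the 40 libraries. Between luminal and basal cells none of the 54 genes was called, where 3.68% of 15356 genes were, with 2 S phase and 2 mitosis genes at an unadjusted p under 0.05, against 3533 of all genes. The interval is wide: for Mki67 the luminal minus basal value was -1.79 ± 0.98 and for Mcm7 it was 1.02 ± 0.34 (edgeR adjusted p = 0.281 and 0.0857). Between stromal and epithelial cells (the mean of luminal and basal) Cenpa was called, at -1.98 ± 0.54 (edgeR adjusted p = 0.0226), where 3.03% of genes were lower and the median of all genes was -0.20. Its difference of puberty from estrus was 2.24 in luminal, 1.26 in basal and -0.03 in stromal cells. Mki67 had the opposite sign, 3.49 ± 1.14 (adjusted p = 0.0566). Between the fat fraction and stromal cells Pola1 was called, at -1.86 ± 0.54 (edgeR adjusted p = 0.0165), where 6.97% of genes were lower and the median of all genes was 0.24. The differences of puberty from estrus were -0.26 in the fat fraction, at 14.3 and 15.7 CPM against 18.98 and 16.9 CPM, and 1.87 in stromal cells. The call of Cenpa was lost without luminal estrus library 2, basal pubertal library 1, either stromal pubertal library or stromal estrus library 1. The call of Pola1 was lost without fat pubertal library 1, fat estrus library 1 or stromal estrus library 1. Without stromal pubertal library 1 the only S phase call was of another direction. In the main fit, Cenpa and Pola1 were each the only gene of the 54 called in their comparison. That share is no larger than the share of all genes. The populations of a replicate came from the same pool of mice, apart from 1 pubertal fat library, and with the pool as a replicate block the calls by edgeR were more. Luminal and basal cells then differed in Mcm7 (1.06, adjusted p = 0.0115) and Cenpe (-3.03, 0.0483), stromal and epithelial cells also in Mki67 (3.40, 0.0476) and Rrm1 (-0.98), and the fat fraction and stromal cells also in Mcm7 (0.91), Cdt1 (1.25) and Pcna (1.02), beside Cenpa (-2.04) and Pola1 (-2.00).

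The remaining genes of the pathways were followed with a list of 40 other replication and repair genes and 44 other mitosis genes. Against the other adult stages, 28 of 40 and 40 of 44 were called higher in luminal puberty and none lower, with medians of 1.39 and 2.81, where 6.8% of all tested genes were higher. In basal cells the counts were 32 of 40 and 43 of 44 (medians 1.44 and 4.38), where 24% of all genes were higher, in the fat fraction 11 of 39 and 32 of 44 (0.46 and 1.99), where 4.16% were, and in stromal cells 3 of 36 and 20 of 35 tested (0.18 and 1.75), where 5.22% were, again with none lower. Against estrus, 10 of 40 and 28 of 44 were called higher in basal cells and 8 of 36 and 18 of 35 in stromal cells, where 17.5% and 17.3% of all genes were. Luminal cells had 0 and 2 and the fat fraction 1 and 2, where 0.825% and 1.05% of all genes were higher. The basal and stromal medians against estrus were 0.63 and 1.38, and 0.47 and 1.76. The mitosis list was above the replication list in each of these comparisons. In the adult libraries alone, the count filter passed 43 of 44 luminal, 42 basal, 33 fat and 20 stromal mitosis genes. It passed 39, 38, 37 and 32 of the 40 replication genes in the same order. The other genes tested passed only with puberty, so the counts and medians rest in part on them, most so in stromal cells.

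Each adult stage on its own gave the same order in the epithelium. In basal puberty all 28 mitosis genes were called higher against proestrus, metestrus and diestrus by edgeR, with medians of 4.64, 4.86 and 5.91, and 20, 22 and 20 S phase genes were, where 21.7%, 19.6% and 17% of all genes were higher. Mcm7 was called lower against each of these stages, where 22.5%, 18.3% and 19% of all genes were lower, and Pcna against diestrus. In luminal puberty the counts were 25, 22 and 27 mitosis genes and 18, 16 and 15 S phase genes, where 3.85%, 3.6% and 3.09% of all genes were higher. In the fat fraction 24, 21 and 0 mitosis genes were called (5.2%, 4.37% and 0.00703% of all genes), and in stromal cells 7, 16 and 0 (0.935%, 3.14% and 0.0904%). Against diestrus alone, 27 mitosis genes of the fat fraction and 17 of stromal cells had an unadjusted p under 0.05, against 905 of 14219 and 2309 of 13267 genes.

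Compared per length, as RPKM on factors shared by all 40 libraries, the median S phase gene was at 5.62 in luminal puberty, 5.67 in basal puberty, 2.73 in the fat fraction and 1.44 in stromal cells. The median mitosis gene was at 3.28, 4.42, 1.56 and 0.635 RPKM. In estrus the medians were 3.03, 3.37, 2.05 and 1.23 RPKM for the S phase genes and 1.37, 1.34, 0.454 and 0.0995 RPKM for the mitosis genes. In the other adult stages the S phase medians lay close together, from 1.35 to 1.53 RPKM over the 4 populations, and the mitosis medians ran from 0.139 RPKM in stromal and 0.158 RPKM in basal cells to 0.409 RPKM in luminal cells. The differences between populations at these low levels were not tested.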

How the data were processed

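RNA was measured by single-end sequencing of polyA libraries from 40 pools of sorted or floating cells. The deposited files are gene counts, which the authors made with TopHat2 2.1, Bowtie 1.1.0 and HTSeq on GRCm38 (mm10). The strand setting of the counting and the annotation release are not given in the sources used here. The authors also deposited log2 tables of scaled counts, which were not used here. Gene symbols came from GENCODE M21 (24739 of 25044 adult and 23989 of 24268 pubertal identifiers matched). Comparisons with puberty use the 23180 genes counted in both tables.

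Counts were fitted per population with edgeR 4.0.16 in R 4.3.3 (quasi-likelihood F-test, TMM factors, genes over 1 CPM in at least 2 libraries), with 10 libraries for puberty and 8 for estrus against the other adult stages, with Benjamini-Hochberg adjustment over all genes tested and a threshold of 0.05. CPM are on TMM-scaled library sizes of the population, and RPKM use summed exon length. A fold is on the log2 scale with its standard error. Differences between populations came from a joint fit of 40 libraries. The steps were tested on simulated data.

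Members and gene lists were chosen with earlier results of these data known. Named genes are those named in the study's supplement, common proliferation markers, and, per comparison, population and class, the 2 members with the smallest adjusted p, those with the highest and lowest fold, those called against their class and those without a test. All stages use the replicate numbers 1 and 2, but the pools of mice differ between stages, while the populations of a replicate share a pool by the study's methods. Replicates differed by more than counting noise. Alternatives were DESeq2 1.42.0, RLE factors, no filter, the newer quasi-likelihood form, replicate and pool blocks, GC and length offsets, other sets of libraries and leaving out each library. Where no share of all genes stands beside a recomputed count, a change of the members cannot be told from one of all genes.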

Additional observations from a re-analysis of the deposited data

Results flagged for a closer look

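In the joint fit of 40 libraries, edgeR's test of whether the difference of puberty from estrus was unlike between populations called 2 genes. For Cenpa the stromal value was lower than the mean of the luminal and basal values by a log2 difference of -1.98 (adjusted p = 0.0226). For Pola1 the value in the fat fraction was lower than in stromal cells, with a log2 difference of -1.86 (adjusted p = 0.0165). The median of all genes was -0.20 and 0.24 in these comparisons, where 3.03% and 6.97% of tested genes were called lower. Each of the 2 calls was lost when any one of several single libraries was left out. With the pool of mice as a replicate block, both remained and further members were called.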

How the results depend on the processing

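Of 664 recomputed counts of called members, 528 were within 1.5 times the reported ones, and of 1975 recomputed folds of named genes 1960 had the reported sign. Counts that moved are given as S phase and mitosis genes called, without the share of all genes called in the same refit, and the cause was not tested. A change of the members can thus not be told from a change of all genes. In luminal puberty against estrus (0 and 1), DESeq2 called 3 and 7, no filter 6 and 16, GC and length offsets 2 mitosis genes, and leaving out libraries gave 0 to 9 and 0 to 5. In basal puberty against estrus (3 and 21), the S phase count was 6 with DESeq2, 7 with no filter and 5 with the newer quasi-likelihood form, and leaving out libraries gave 1 to 17 and 7 to 26. Without basal pubertal library 1 or basal estrus library 2 the 1 S phase call was the lower one of Mcm7. In the fat fraction against estrus (0 and 3), DESeq2 called 1 and 19, the joint fit 1 and 15, the newer form 5 and GC and length offsets 1 mitosis gene, and leaving out libraries gave 0 to 2 and 0 to 15. In stromal puberty against estrus (1 and 18), GC and length offsets called 1 S phase gene lower and 10 mitosis genes, the joint fit 2 S phase genes, and leaving out libraries gave 0 to 3 and 6 to 19. Puberty against the other adult stages gave 20 to 25 and 25 to 28 without single libraries in luminal cells, 19 to 23 and 28 to 28 in basal cells, 0 to 11 and 0 to 27 in the fat fraction and 0 to 2 and 1 to 19 in stromal cells. In stromal cells 1 S phase gene was called there with DESeq2, no filter, the newer form or the joint fit, in place of 0. Estrus against the other stages in luminal cells (0 and 0) gave 12 and 24 with DESeq2, 20 and 28 with no filter and 4 and 2 in the joint fit, and 0 to 13 and 0 to 24 without single libraries. In basal cells (11 and 22) 18 S phase genes were called with DESeq2 and 20 with no filter, and leaving out libraries gave 0 to 18 and 0 to 21. In stromal cells (0 and 0) DESeq2 and the joint fit called 1 S phase gene and no filter 1 of each class, with 0 to 1 and 0 to 0 without single libraries, and in the fat fraction these were 0 to 0 for both. Samples of different stages share only a replicate number: deviations of replicate 1 correlated between stages from -0.36 to 0.38 in luminal, -0.31 to 0.33 in basal, -0.67 to 0.73 in fat and -0.15 to 0.43 in stromal libraries. With the number as a replicate block, 3 luminal mitosis, 6 basal S phase and 0 fat mitosis genes were called in puberty against estrus, 2 fat and 1 stromal S phase genes against the other adult stages, and 6 basal S phase genes in estrus against the other stages. For the differences between populations, the pool of mice as a replicate block gave 1 and 1 calls between luminal and basal cells, 1 and 2 between stromal and epithelial cells and 4 S phase calls between fat and stromal cells, 3 of them higher, while the newer form gave 2. Leaving out libraries gave 0 to 1 and 0 to 4, 0 to 3 and 0 to 6, and 0 to 3 and 0 to 2 in these comparisons. Most calls were higher in place of lower among the 6 and 4 mitosis calls between stromal and epithelial cells without luminal pubertal library 1 and without basal estrus library 2. The same held between fat and stromal cells for the 3 S phase calls without fat pubertal library 2 or stromal estrus library 2 and the 1 without stromal pubertal library 1. Folds near 0 changed sign with GC and length offsets for fat Gmnn (0.011) against the other adult stages and stromal Aurka (0.12) against estrus. Without single libraries the folds against estrus ran from -0.42 to 0.43 for luminal Mcm6, from -0.33 to 0.64 for luminal Ncapd2, from -0.025 to 1.47 for basal Iqgap3, from -0.044 to 0.72 for basal Ncapd2, from -0.30 to 0.21 for stromal Cenpa and from -0.87 to 0.87 for stromal Aurka. In estrus against the other stages they ran from -0.35 to 0.20 for basal Pcna and from -0.011 to 1.12 for luminal Anln. With 2 libraries a group, single libraries decide many counts, and genes near 1 CPM in stromal cells are measured on few reads.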
